A study of Mus musculus with 6 samples.

Results

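The mRNA of hearts of mice with heart failure (HF) was compared with that of control hearts, each on 1 of the 6 arrays of the series. All mice were male C57BL/6J with no genetic change named in the sources, and their age was not given there. HF mice were injected under the skin with isoproterenol, which activates β-adrenergic receptors, at 40 mg/kg/day during 1 week, and saline was injected into the control mice. RNA of 5 mice was mixed for each array, so the spread between mice was not measured and no difference below carries a test, a p value or an SD between samples. The model is an acute one made by a drug, and in RNA of heart tissue fewer cells of a type and less RNA per cell cannot be told apart. Which part of the heart was taken was not given in the sources used here, which bears on genes of atria and conduction fibres such as Nppa, Gja5 and Hcn4.

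The genes were those of 4093 mRNA probes, among the 59729 of the array, that a gene table of the study names in the portion held here. These probes stood for 3470 genes. Detection meant that the scanner software had called the signal well above background and the spot no outlier. Control heart had 4020 of the 4093 probes detected, HF heart had 3092, and each was detected in at least 1 of the 2, so genes silent on both arrays are not represented. On both heart arrays 2635 genes were detected. A further 775 genes were detected in control heart only and 56 in HF heart only, and 4 carried an outlier flag. Levels are given as log2 of the background-subtracted signal after quantile normalization over the 6 arrays, and a log2 fold change is the level in HF heart minus that in control heart. A gene was counted as higher or lower in HF heart where it was detected on both arrays and differed at least 2-fold.

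Isoproterenol acts through β-adrenergic receptors and cyclic AMP, raises the rate and force of the heartbeat and, given for days, leads to loss of cardiomyocytes and scarring. A strained heart muscle cell releases natriuretic peptides, returns to genes used before birth and shifts its fuel from fatty acids towards sugar. Fibroblasts lay down collagen, and neutrophils and macrophages enter injured muscle.

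The array of HF heart was the dimmer one, with a median processed signal of 8.97 against 23.0 in control heart and a 75th percentile of 72.8 against 137, although both arrays lay on 1 slide. The share of all probes detected was 47.3% for control heart and 35.1% for HF heart. The lowest level flagged as well above background was 3.56 in control heart and 4.72 in HF heart, so a low gene had less room below it on the HF heart array. The error that the scanner software gives for a log2 fold change, over both arrays, had a median of 0.21 and reached 0.45. Where a gene was detected on both arrays by several probes, as 282 genes were, its probes spread more than this error: their log2 fold changes had a pooled SD of 0.70 around the gene, and 87 of these genes had probes that lay more than 1 apart. Only the brightest probe of each gene among the 4093 named ones was used unless stated. The 1 array per condition limits the precision of every value.

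Of the 2635 genes, 319 (12.1%) lay at least 2-fold higher in HF heart than in control heart and 454 (17.2%) at least 2-fold lower, while 1862 stayed within 2-fold. The median log2 fold change of the 2635 genes was -0.16, and the 5th and 95th percentiles were -1.61 and 1.68. Large differences leaned the other way, with 97 genes at least 4-fold higher and 35 at least 4-fold lower. Both counts leave out the 775 genes detected in control heart only and the 56 detected in HF heart only. With the higher detection limit of the HF heart array, large falls of low genes could not enter them. Over all 20065 probes detected on both heart arrays, 13.9% were higher and 12.9% lower, with a median of 0.02. When each array was scaled to its 75th percentile in place of quantile normalization, the median of the named genes moved by 0.17 to 0.00, and 453 genes were higher and 366 lower. Values of single genes and lists are therefore best read against the median of all named genes, and the counts of each list below against the 12.1% higher and 17.2% lower of all named genes. Split into 3 bands of about equal size by mean level, from low to high, the genes gave 104, 111 and 104 higher genes and 84, 186 and 184 lower genes.

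**Figure D1:**
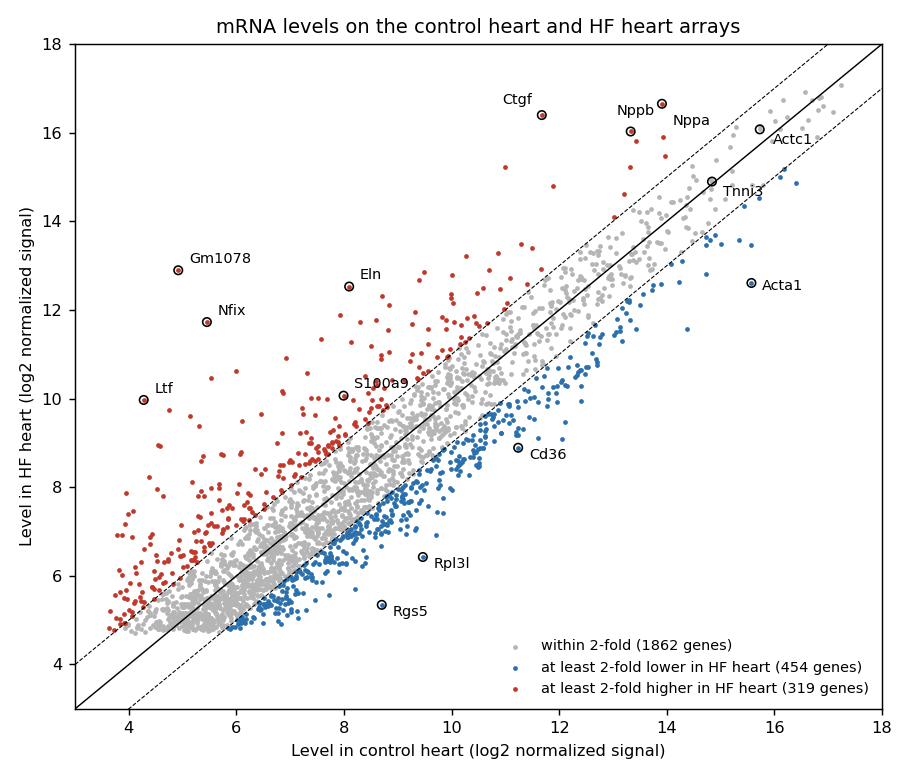
Level of each of the 2635 genes in control heart (x axis) and HF heart (y axis), both as log2 normalized signal, with a point for each gene, the line of equal level and dashed lines at a 2-fold difference. The 319 genes higher by 2-fold or more are red and the 454 lower ones blue, and circled genes are described in the text, Gm1078 lying farthest above the line and Rgs5 farthest below.

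Both natriuretic peptide genes were more than 6-fold higher in HF heart, or more than 3-fold when the 2 heart arrays were normalized alone. Nppb, which encodes B-type natriuretic peptide, had a deposited processed signal of 23377 in control heart and 62900.2 in HF heart, and its normalised levels were 13.33 and 16.03, a log2 fold change of 2.70 with an error within the arrays of 0.20. Nppa, which encodes atrial natriuretic peptide and is switched on again in the stressed ventricle, had signals of 34635 and 87563 and levels of 13.91 and 16.65, a log2 fold change of 2.74. Both were already well above background in control heart, and with the heart arrays normalized alone their log2 fold changes were 1.86 for Nppb and 1.80 for Nppa. Npr3, the receptor that clears the peptides from the circulation, was measured by 2 probes, at 5.34 and 8.59 by the brighter one, and their log2 fold changes were 3.24 and 3.50. With a normexp background correction the first of them was 1.98. Npr1, the guanylyl cyclase receptor that passes on the signal of both peptides, went from 11.23 to 11.82, a log2 fold change of 0.59, under the 2-fold limit. Corin, the protease that cuts the precursor of atrial natriuretic peptide into its active form, moved the other way, from 9.09 to 8.0, and its log2 fold change of -1.09 became -0.89 with the 75th percentile scaling and with normexp. The list of 5 genes thus held 3 higher members and 1 lower one, against 12.1% and 17.2% of all named genes.

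Nppa and Nppb are neighbours on chromosome 4. The 250 bases before the start of each gene are shown beside those of Acta1, the skeletal α-actin gene, because all 3 genes are known for their return in the stressed ventricle, while Acta1 was lower in HF heart here. The sequences are from RefSeq on GRCm38.p6, read 5′ to 3′ along the strand of the gene. Capitals mark matches to a pair of motifs on either strand. One is CATTCC, the M-CAT motif, to which TEAD factors bind. The other is TGATAA, a motif of GATA factors such as GATA4.
Nppb, chr4:147985650-147985899, plus strand: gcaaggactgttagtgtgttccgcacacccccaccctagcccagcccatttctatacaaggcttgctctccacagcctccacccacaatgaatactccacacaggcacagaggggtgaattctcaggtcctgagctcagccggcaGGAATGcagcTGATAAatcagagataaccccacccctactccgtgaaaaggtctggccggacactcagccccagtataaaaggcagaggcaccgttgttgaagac
Nppa, chr4:148000472-148000721, plus strand: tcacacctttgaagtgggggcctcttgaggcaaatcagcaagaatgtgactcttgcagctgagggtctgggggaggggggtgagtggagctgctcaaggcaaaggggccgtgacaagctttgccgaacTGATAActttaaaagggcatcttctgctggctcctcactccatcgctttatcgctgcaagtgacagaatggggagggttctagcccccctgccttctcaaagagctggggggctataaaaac
Acta1, chr8:123894776-123895025, minus strand: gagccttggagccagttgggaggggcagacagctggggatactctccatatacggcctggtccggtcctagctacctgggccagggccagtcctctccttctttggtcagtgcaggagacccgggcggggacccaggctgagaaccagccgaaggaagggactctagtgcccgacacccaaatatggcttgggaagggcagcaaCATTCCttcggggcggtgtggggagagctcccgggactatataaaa
The Nppb window held 1 M-CAT and 1 GATA match, which do not overlap, the Nppa window 1 GATA match and the Acta1 window 1 M-CAT match. Among 32851 such windows of all genes, 12.6% held the M-CAT letters and 7.94% the GATA letters on either strand. These matches describe the letters only, and binding was not measured.

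Contractile genes gave a mixed picture, with most members little changed and skeletal α-actin far lower. All 10 sarcomere genes were detected on both arrays, 1 was higher and 3 were lower, and their median log2 fold change was -0.13, against -0.16 for all named genes, or 0.23 against 0.00 with the 75th percentile scaling. Actc1, the cardiac α-actin that is the main actin of the adult heart, had signals of 79969 and 65513 and normalised levels of 15.73 in control heart and 16.07 in HF heart. Tnni3, the inhibitory subunit of cardiac troponin, had signals of 54187 and 42090.3 and levels of 14.84 and 14.90. For both genes the deposited signal was lower on the HF heart array and the normalised level was not, and the log2 fold changes of 0.35 for Actc1 and 0.06 for Tnni3 were well under the 2-fold limit. Tnni3 lay at -0.14 with the normexp correction and at 0.55 with the 75th percentile scaling. Myh6, the fast cardiac myosin heavy chain, was at 10.88 and 10.68, and Myom2, an M line protein, at 10.54 and 10.45. Tnni1, the troponin I of the fetal heart, was near the detection limit at 5.44 and 5.37. None of these 3 genes reached a 2-fold difference in any of the scalings tried.

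Acta1 had a processed signal of 73680.4 in control heart and 11172 in HF heart, and its level went from 15.57 to 12.61, a 7.80-fold lower value. Myom1, which ties the thick filaments together at the M line, went from 9.73 to 7.45, a log2 fold change of -2.28. Tnnc1, the calcium-binding subunit of cardiac troponin, went from 16.11 to 14.99, a log2 fold change of -1.12. These falls did not stand equally firm, since Tnnc1 lay at -0.14 with the 75th percentile scaling and at -0.63 when the 2 heart arrays were normalized alone, whereas Acta1 and Myom1 were at least 2-fold lower in all 4 scalings, Acta1 at -1.81 with the 75th percentile. Tnnt2, the troponin subunit that binds tropomyosin, counted as higher through its brightest probe, at 13.32 and 15.23. Its 9 probes ran from -0.43 to 1.91 with a median of 1.08, and 5 of them were at least 2-fold higher. Tpm1, α-tropomyosin, had 6 probes from -0.39 to 1.69, of which 2 were at least 2-fold higher, and its brightest probe, at -0.17, was not. For these 2 genes the result thus depends on which probe is read.

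Genes of the Z disc, of chaperones and of the muscle membrane gave 0 higher and 5 lower members among 19 of 22 detected on both arrays, so 26.3% were lower against 17.2% of all named genes, and with the 75th percentile scaling 1 was higher and 2 lower. The 5 lower ones were Hspb6, a small heat shock protein, at 9.83 and 7.76 (log2 fold change -2.08), myoglobin (Mb, -1.75), muscle creatine kinase (Ckm, -1.45), the sarcoglycan Sgca (-1.06) and the LIM protein Fhl2 (-1.06). Myoglobin had a second probe at 0.96, so its direction was not settled. Flnc, a filamin of the Z disc that is induced by stretch, was at 12.49 and 13.46, just under the limit at 0.97, and the caveolin Cav3 stayed at 13.11 and 12.99. The median of the list was -0.12 and turned to 0.30 with the 75th percentile scaling.

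Of 12 genes listed as skeletal muscle isoforms 7 were detected on both arrays, 3 were higher and 2 lower. The fast troponin genes Tnni2, at 4.39 in control heart and 6.87 in HF heart, and Tnnt3, at 6.85 and 9.23, and the myosin light chain Myl1, at 7.19 and 9.22, were 5.57-fold, 5.22-fold and 4.08-fold higher. All 3 probes of Tnnt3 were at least 2-fold higher. Rpl3l, a ribosomal protein made mainly in striated muscle, went from 9.46 to 6.42 and was 8.22-fold lower, one of the largest falls of all named genes. The elongation factor Eef1a2, also used by muscle, went from 10.38 to 9.07. These 2 lower members are also made in heart muscle, while the 3 higher ones are contractile isoforms of skeletal muscle. With the normexp correction Tnni2 was just under the 2-fold limit, at 0.97.

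**Figure D2:**
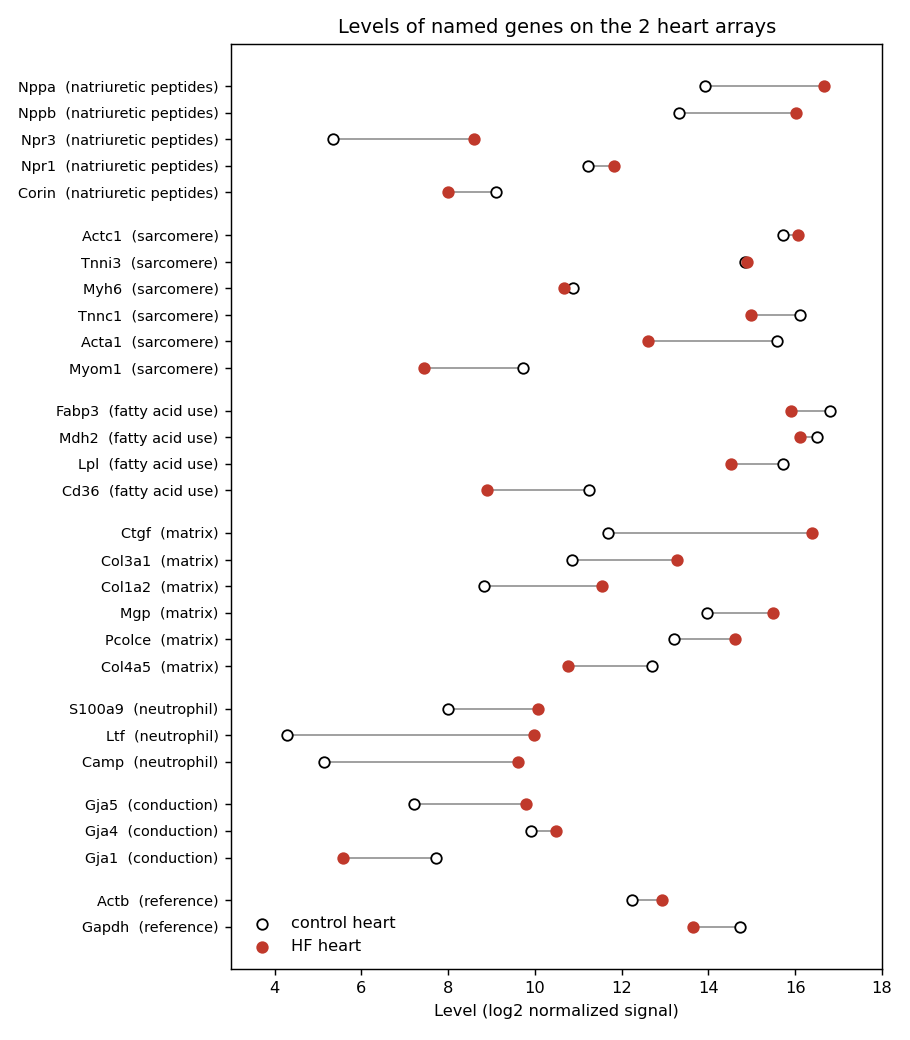
Levels of 29 genes, as log2 normalized signal on the x axis, in control heart (open points) and HF heart (red points), 1 array each, joined by a line and grouped by role. The natriuretic peptides, most of the matrix genes and the neutrophil genes lie higher in HF heart, Actc1 and Tnni3 hardly move, and Acta1, Myom1, Cd36 and Gja1 lie lower.

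Genes of calcium handling had a median of -0.21, close to that of all named genes, with 0 higher and 4 lower members among 14 of 18 detected on both arrays. The lower ones were 28.6% of those detected, against 17.2% of all named genes. Atp2a2, the calcium pump SERCA2 of the sarcoplasmic reticulum, was at 16.57 and 16.91, and its 2 probes gave 0.34 and -0.07. Ppp3cb, a catalytic subunit of calcineurin, went from 7.13 to 5.20, a log2 fold change of -1.93 that became -0.97 with the normexp correction. Asph, whose transcripts include junctin of the sarcoplasmic reticulum, was at -1.80 by its brightest probe, while its other probes gave 0.08 and 0.60. The other lower members were the calmodulin gene Calm3 (-1.55) and the T-type calcium channel Cacna1h (-1.24), while Calm2, at 13.85 and 14.55, and the channel subunit Cacnb1 (0.70) were within 2-fold. The pump thus stayed within 2-fold on both of its probes, and the lower members did not include it.

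Among ion channels and connexins, the gap junction genes differed from each other. Gja1, connexin 43 of the working myocardium, went from 7.71 in control heart to 5.57 in HF heart, a 4.41-fold lower value, and a log2 fold change of -2.14 that became -1.13 with the normexp correction. Gja5, connexin 40 of atria, conduction fibres and arterial endothelium, went from 7.22 to 9.80, a 5.99-fold higher value. Gja4, connexin 37 of endothelium, was at 9.91 and 10.49, within 2-fold. The 3 other lower members were the sodium channel subunit Scn4b (-1.87), the pacemaker channel Hcn4 (-1.59) and the potassium channel Kcnq1 (-1.43), and the other higher member was the sodium pump subunit Atp1b3 (1.20). In all, 2 of 13 members (15.4%) were higher and 4 (30.8%) lower, against 12.1% and 17.2% of all named genes. The list had a median of -0.57. The potassium channel Kcnd3, at 9.93 and 9.28, and the pump subunit Atp1b1, at 8.68 and 8.34, were within 2-fold.

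The drug acts on the adrenergic system, whose genes had a median of -0.59, with 2 higher and 3 lower of 19 detected on both arrays among 23. These shares, 10.5% and 15.8%, were near the 12.1% and 17.2% of all named genes, and with the normexp correction 0 were higher and 2 lower. Rgs5, a brake on G protein signalling that marks pericytes, showed the largest fall of all named genes detected on both arrays. It went from 8.70 to 5.35, a 10.2-fold lower value. With the normexp correction its log2 fold change of -3.35 became -1.83, smaller than that of Acta1 (-3.13), so both its size and its rank depend on the background correction. The other lower members were the phosphodiesterase Pde1c (-1.71) and the α1 receptor Adra1b (-1.37). Crem, a transcription factor that cyclic AMP induces, went from 5.20 to 6.54, a log2 fold change of 1.35 that became 0.58 with the normexp correction. The other higher member was Rapgef4 (1.08), an exchange factor that binds cyclic AMP. The stimulatory G protein gene Gnas, at 10.85 and 10.46, Atf1, at 12.06 and 11.65, and the kinase inhibitor Pkig, at 14.89 and 14.27, were within 2-fold.

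Of the genes of fatty acid use, Cd36 was among the lower ones and most others stayed within 2-fold. All 24 genes of fatty acid use and the citric acid cycle were detected on both arrays, 0 were higher, 10 were lower and 14 were within 2-fold, and the median was -0.80. The lower ones were 41.7% of the list, against 17.2% of all named genes. With the 75th percentile scaling 6 of the 24 were lower and the median was -0.48, against 0.00 for all named genes. Cd36, which carries fatty acids into the cell, went from 11.24 to 8.89, and its 4 probes lay between -2.62 and -2.24. Lpl, the lipase that frees fatty acids from lipoproteins, went from 15.72 to 14.51, at -1.20. It lay at -0.26 with the 75th percentile scaling and at -0.73 with the 2 heart arrays normalized alone. Fabp3, the fatty acid binding protein of heart, went from 16.79 to 15.89, at -0.90. The cytosolic malate dehydrogenase Mdh1, at 14.24 and 14.47, showed the largest rise of the list, of 0.24, and the mitochondrial Mdh2 was at 16.51 and 16.11. The other lower members included Acsl1 (-2.28), which activates long chain fatty acids, Crat (-1.74), Acadm (-1.61) and Pdha1 (-1.18), a subunit of pyruvate dehydrogenase, named here after their values were seen.

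Subunits of oxidative phosphorylation gave 0 higher and 7 lower members among 22, all detected, with a median of -0.79, so 31.8% were lower against 17.2% of all named genes. The subunits of cytochrome c oxidase named by rule were Cox7c, which went from 15.34 to 13.58 (-1.76), Cox5b, at 16.63 and 16.29, Cox6a2, at 16.80 and 16.51, and Cox8b, at 16.91 and 16.60. The adenine nucleotide carrier Slc25a5, at 13.88 and 14.08, showed the largest rise, of 0.20. This result rested on the scaling: with the 75th percentile 2 of the 22 were lower and the median was -0.09, close to that of all named genes, and with the 2 heart arrays normalized alone 3 were lower. With the normexp correction 8 were lower. Cox7c itself was at -0.74 with the 75th percentile scaling.

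Genes of sugar use split into 2 directions. Of 15 genes of glycolysis and the pentose phosphate path 3 were higher and 6 lower. These were 20% and 40%, against 12.1% and 17.2% of all named genes. The 3 higher genes were those of the pentose phosphate path, namely G6pdx, its first enzyme, at 10.41 and 11.87 (log2 fold change 1.46), Tkt (1.34) and Pgd (1.21). Aldoa, an aldolase, showed the largest fall, from 8.78 to 7.16. The others that were lower were Pfkm (-1.57), Pklr (-1.56), the lactate carrier Slc16a1 (-1.48), Eno3 (-1.23) and Gapdh (-1.07). Pgk1, at 14.80 and 14.51, and Ldhb, at 12.91 and 12.71, were within 2-fold. With the normexp correction only 1 of the 15 was higher, G6pdx at 1.47, and 6 were lower. With the 75th percentile scaling 3 were higher and 4 lower, and the median of the list was 0.00, as for all named genes.

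Gapdh is a common reference gene, and its 2 measures did not give the same value. The probe of the gene table went from 14.72 to 13.65, a log2 fold change of -1.07 that was -0.29 with the 75th percentile scaling. Another Gapdh probe, printed 20 times on each array, was at 17.07 and 17.02, a log2 fold change of -0.05, with an SD over its spots of 0.13 in control heart and 0.07 in HF heart. Actb, β-actin, was at 12.23 and 12.93 by the probe of the gene table, and its probe of 20 spots gave 0.63. Of 15 probes printed 20 times, 14 were detected on both arrays, with a median log2 fold change of 0.29 and a range from -1.01 for Tfrc, the transferrin receptor, to 1.47 for Tuba1b, an α-tubulin. Within 2-fold were 11 of them, and the SD over spots of 1 probe had a median of 0.06 in control heart and 0.05 in HF heart.

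Matrix genes held some of the largest rises. Ctgf (now Ccn2), a matrix protein induced by TGF-β and by stretch, had a processed signal of 8605 in control heart and 78897 in HF heart, and its level went from 11.68 to 16.40, a 26.4-fold higher value. Eln, elastin, went from 8.09 to 12.53, a 21.6-fold higher value. The fibrillar collagens Col1a2, from 8.82 to 11.55, and Col3a1, from 10.86 to 13.28, were 6.65-fold and 5.36-fold higher. These 4 genes were at least 2-fold higher in all 4 scalings, with Ctgf at a log2 fold change of 3.67 when the heart arrays were normalized alone. Pcolce, which helps to cut procollagen, went from 13.20 to 14.62, and Mgp, which keeps calcium salts from forming in matrix, from 13.97 to 15.48. Postn, periostin of activated fibroblasts, was not well above background in control heart, at 3.70, and at 7.09 in HF heart, at least 10.5-fold higher. For such a bound the level of the probe where it was detected was divided by its own level on the other array, or by the lowest level well above background on that array if this was higher. Postn passed detection only through the array where it was high, so its bound adds no support to the rises above.

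Not all matrix genes followed. Of 43 such genes 40 were detected on both arrays, 10 were higher and 7 lower, and the median was 0.41. The shares were 25% higher and 17.5% lower, against 12.1% and 17.2% of all named genes. The share of lower ones thus lay at the background. The largest fall was that of Col4a5, a chain of basement membrane collagen, from 12.70 to 10.76, a log2 fold change of -1.93. Serpinh1, a chaperone of collagen, had 3 probes that ran from -1.66 to 1.83, and it was 1 of 2 genes, with Fance, whose probes passed the 2-fold limit in opposite directions. The proteoglycans Dcn, at 9.93 and 10.41, and Lum, at 12.63 and 13.28, and the related Ogn, at 10.37 and 10.05, were within 2-fold. With the 75th percentile scaling 15 members were higher and 6 lower.

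Growth factor and TGF-β signals gave 7 higher and 3 lower members among 18 of 21 detected, with a median of 0.35. Higher members were 38.9%, against 12.1% of all named genes, and lower ones 16.7%, near the background of 17.2%. Igfbp2, which binds insulin-like growth factors, showed the largest rise, from 3.98 to 7.40, and Igfbp7, from 11.66 to 12.91, was higher by both of its probes. Further higher members included the inhibitory Smad6 (2.70) and Bmp2 (2.30), named after their values were seen. Igf2, at 11.10 and 9.62, was lower by its brightest probe and at -0.54 by the other one. Fgf1 went from 14.08 to 13.03, a log2 fold change of -1.05. It did not reach 2-fold with the 75th percentile scaling (-0.43), with normexp (-0.99) or with the heart arrays normalized alone (-0.93). Pdgfa was at 11.54 and 11.97. Tgfb3 was detected in HF heart only, at least 3.18-fold higher, a bound that adds no support to the 7 higher members.

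Stress genes gave 5 higher and 4 lower members among 25 of 26 detected, with a median of 0.21. The shares were 20% higher and 16% lower, against 12.1% and 17.2% of all named genes. Mt2, a metallothionein induced by metals and glucocorticoids, went from 11.89 to 14.80, a 7.51-fold higher value. The other 4 higher members were the stress factor Atf3 (2.32), Bnip3l (1.57), Ppp1r15a (1.47) and Fosl2 (1.1). Ccng1, a target of p53, went from 12.40 to 10.29, and the other lower members were Sgk1 (-1.84), Trp53 (-1.79), which encodes p53 itself, and Gadd45a (-1.58). Jund, at 14.41 and 14.76, and the mitochondrial chaperone Hspe1, at 13.63 and 13.43, were within 2-fold. Hsp90ab1 was counted as within 2-fold by the probe of the gene table, at 7.93 and 7.88. Its brighter probe, printed 20 times and not in that count, was at 12.05 and 13.06, a log2 fold change of 1.01.

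Cell cycle genes gave 2 higher and 2 lower members among 16 of 25 detected, 8 being detected in control heart only and 1 in HF heart only. The share of 12.5% in each direction was close to the background for higher genes (12.1%) and below that for lower ones (17.2%). Mcm2, part of the replicative helicase, went from 4.96 to 6.44, and Pttg1, securin, from 12.40 to 9.95. Fen1 and Cenpm stayed within 2-fold. Ribosomal protein genes, all 24 detected, gave 3 higher and 1 lower member with a median of 0.18, and the 12.5% that were higher lay at the background of 12.1%. Rpl29 went from 4.06 to 6.87 and Rps2 from 8.68 to 6.96, while Rpl38, at 16.02 and 16.27, and Rps15, at 16.24 and 16.34, hardly moved. Many ribosomal protein genes have processed pseudogenes, so a probe may read several copies.

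**Figure D3:**
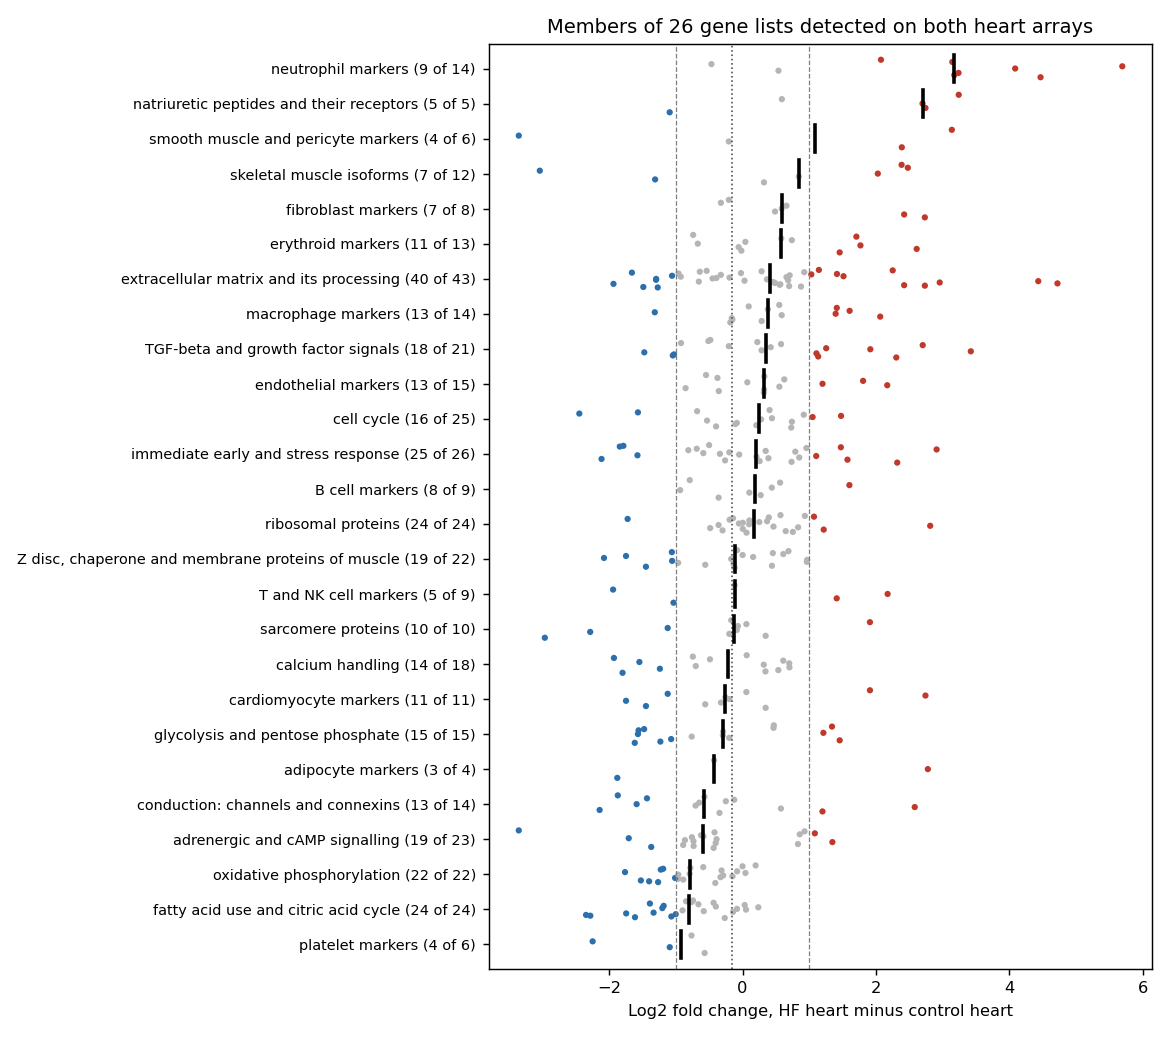
Log2 fold change of each member detected on both heart arrays (x axis, HF heart minus control heart) for 26 gene lists, with the number of members detected of all members beside each name, ordered by the median (black bars). Red and blue points passed the dashed lines at 2-fold, the dotted line is the median of all 2635 genes at -0.16, and neutrophil markers (median 3.17) lie at the top and platelet markers (-0.93) at the bottom.

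Markers of cell types were read to see which cells the heart RNA stood for. All 11 cardiomyocyte markers were detected on both heart arrays, and also on the whole blood array of HF mice, while 3 were detected in whole blood of control mice. In heart they gave 2 higher and 3 lower members with a median of -0.26, or 0.18 with the 75th percentile scaling. Their summed level, the sum of the normalised signals of the list, was 216404 in control heart and 298257 in HF heart, and 23297 and 96244 in whole blood of control and HF mice. The difference in heart lay in Nppa, without which the sums were 201026 and 195359. Erythroid markers were bright in both heart mixtures, with Hba-a1 at 16.70 and 16.74 and Beta-s (now Hbb-bs) at 16.10 and 16.08. Their summed level was 253738 in control heart and 294063 in HF heart, and 754270.0 and 605345 on the whole blood arrays of control and HF mice, so erythroid RNA was measured in both heart mixtures. Hbb-b1 (now Hbb-bt), at 15.92 and 16.50, shares near-identical sequence with Beta-s and cannot be told from it with certainty. In the list 4 of 11 members were higher, the largest being Bpgm, 6.11-fold higher in HF heart from a level of 7.39, while Slc14a1, at 7.51 and 6.77, was within 2-fold. With the normexp correction 1 of the 11 was higher. The erythroid factor Gata1 was below the detection limit in HF heart, and its level in control heart was at least 11.4-fold higher.

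Neutrophil markers showed the highest median of the 26 lists, at 3.17, with 7 of 9 detected members higher and 0 lower. Like those of the other lists, their members were chosen with earlier results of these data known. S100a9, a calcium-binding protein that fills the cytoplasm of neutrophils, had a signal of 669 in control heart and 2014 in HF heart, and its level went from 7.99 to 10.07, a 4.21-fold higher value. Ltf, lactoferrin of neutrophil granules, went from 4.28 to 9.97, and Camp, the granule peptide cathelicidin, from 5.14 to 9.60. Both were among the 10 largest rises of the named genes detected on both arrays. Pglyrp1 (3.14), Chi3l3 (now Chil3, 3.17), Clec4d (3.24) and Lcn2 (4.09) completed the 7, and Cxcl2 (0.54) and Mnda (now Ifi211, -0.47) were within 2-fold. Outside this count, 4 markers, Ngp, Stfa1, Stfa2 and Chi3l1, were well above background in HF heart only, with bounds from at least 3.73-fold to at least 12.6-fold. These 4 passed detection only through the array where they were high, so they add no support to the count of 7. Il1b was detected in control heart only. Control heart thus had 10 of the 14 markers detected, with a summed level of 2374, and HF heart 13, with 5755. Mnda held most of the sum in control heart, at 1845, and was at 610 and 414 in whole blood of control and HF mice. Without it the heart sums were 529.9 and 4420. The summed level was 34057 on the whole blood array of HF mice, where 13 of the 14 were detected, and 1969 on that of control mice. The part of blood left in the heart in these rises was not tested. With the normexp correction the median of the list was 1.54 and 7 members were still higher.

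Macrophage markers gave 4 higher and 1 lower member among 13 of 14 detected, with a median of 0.38. These were 30.8% and 7.69% of those detected, against 12.1% and 17.2% of all named genes. The resident macrophage genes C1qa, at 13.30 and 13.11, C1qc, at 12.92 and 12.76, and Cbr2, at 12.51 and 12.35, were within 2-fold. Ccl6, a chemokine of myeloid cells, went from 6.34 to 8.40. Lgals3, galectin 3, was not well above background in control heart, at 3.49, and at 7.74 in HF heart, at least 18.2-fold higher. It passed detection only through the array where it was high, so it adds no support to the 4 higher members. Cx3cr1, the fractalkine receptor, went from 8.28 to 6.96. The summed level of the 14 markers was 29241 in control heart and 28605 in HF heart, with the bright C1q genes weighing most in the sum.

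Fibroblast markers gave 2 higher members of 7 detected, the collagens Col1a2 and Col3a1, and a median of 0.59, or 0.86 with the 75th percentile scaling. Fap, at 6.83 and 7.41, and Pdgfrb, at 5.70 and 5.50, were within 2-fold, as were Dcn, Lum and Ogn. The summed level went from 11105 to 25700.

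Vessel genes were divided. Of 13 detected endothelial markers 3 were higher, namely Ecscr, from 7.46 to 9.63, Pecam1 (1.81), both probes of which were higher, and Eng (1.20), whose other probe gave -0.17. Higher members were 23.1% of those detected and lower ones 0%, against 12.1% and 17.2% of all named genes. Cav1, at 14.11 and 14.43, Aqp1, at 13.86 and 13.50, S1pr1, at 11.82 and 12.44, and Cd300lg, at 7.25 and 6.39, were within 2-fold. Among the smooth muscle and pericyte markers, Acta2, smooth muscle α-actin, went from 13.42 to 15.81 and Tpm2, β-tropomyosin, from 8.13 to 11.27, while Rgs5 was lower and Pdgfrb within 2-fold. Notch3 and Smtn were detected in control heart only. The median of these 4 detected members was 1.09 and rested on genes that differed in direction.

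Lymphocyte markers were mixed. Of 8 detected B cell markers only Cd79b was higher, from 4.73 to 6.33, and it lay at 0.59 with the normexp correction. A share of 12.5% higher lay at the 12.1% of all named genes. Cd37, Cd72, Cd74, Blnk, H2-Ob and Pou2f2 were within 2-fold, between -0.93 and 0.56, and Vpreb3 was detected in HF heart only. Of the T and NK cell markers Cd3e, from 7.52 to 8.93, and Cxcr3, from 4.96 to 7.14, were higher, Klrk1, from 10.45 to 8.51, and Cd247, from 6.10 to 5.06, were lower, and Thy1 was at 5.50 and 5.38. Cd6, Cd8a, Cd28 and Cd160 were detected in control heart only.

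Platelet markers were the lowest list, with a median of -0.93. Gp5 went from 9.34 to 7.09, a 4.75-fold lower value, and Gp1bb, in the same surface complex, from 7.73 to 6.64. F2rl3, at 7.70 and 7.13, and Mmrn1, at 5.62 and 4.85, were within 2-fold, and Gp6 and Ly6g6f were well above background in control heart only. The summed level went from 1207 to 417, and it was 8950.3 on the whole blood array of control mice and 3293 on that of HF mice. The part of blood in this difference was not tested. Adipocyte markers were few: Scd1 was 6.86-fold higher in HF heart, at 12.78, G0s2 from 13.44 to 11.56, Thrsp stayed at 9.46 and 9.04, and Adipoq was detected in control heart only.

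The 10 largest rises among genes detected on both arrays did not include Nppa or Nppb. Gm1078 (now Sbk3), a gene for a kinase of the SH3-binding kinase family, went from 4.92 to 12.89, a log2 fold change of 7.98 on a processed signal of 68.7 in control heart and 13454 in HF heart. Nfix, a nuclear factor I gene, followed at 6.28, from 5.45 to 11.73, but its other probe gave -0.70, so the rise belongs to 1 probe. The others of the first 10 were Ltf (5.69), Fxyd3 (4.99), a regulator of the sodium pump, Chad (4.93), a matrix protein of cartilage, Ctgf (4.72), Aox1 (4.65), an aldehyde oxidase, Camp (4.47), Eln (4.43) and Xylb (4.41), a xylulokinase. Apart from Ctgf and Eln, these genes lay between 4.28 and 5.98 in control heart. The lowest level flagged as well above background there was 3.56. Each of the 10 apart from Nfix rested on 1 probe.

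Among genes detected on both arrays, the largest falls were smaller in size than the largest rises. Falls to below the detection limit of the HF heart array are not among them. After Rgs5 and Rpl3l came Igsf9b, from 12.06 to 9.08, Acta1, Slc25a34, a mitochondrial carrier, from 14.37 to 11.56, Gm826, from 9.71 to 6.93, and Asb14, from 12.11 to 9.47. Krtap10-4, a keratin-associated protein gene, Trim72, which takes part in membrane repair in muscle, and Pttg1 closed the 10, at -2.49, -2.49 and -2.45. Rgs5, the first of them, was 10.2-fold lower, while the first of the rises, Gm1078, was 252-fold higher. With the normexp correction the log2 fold changes of these genes were -1.83 and 6.05, so the folds depend on the background correction while the directions did not change.

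**Figure D4:**
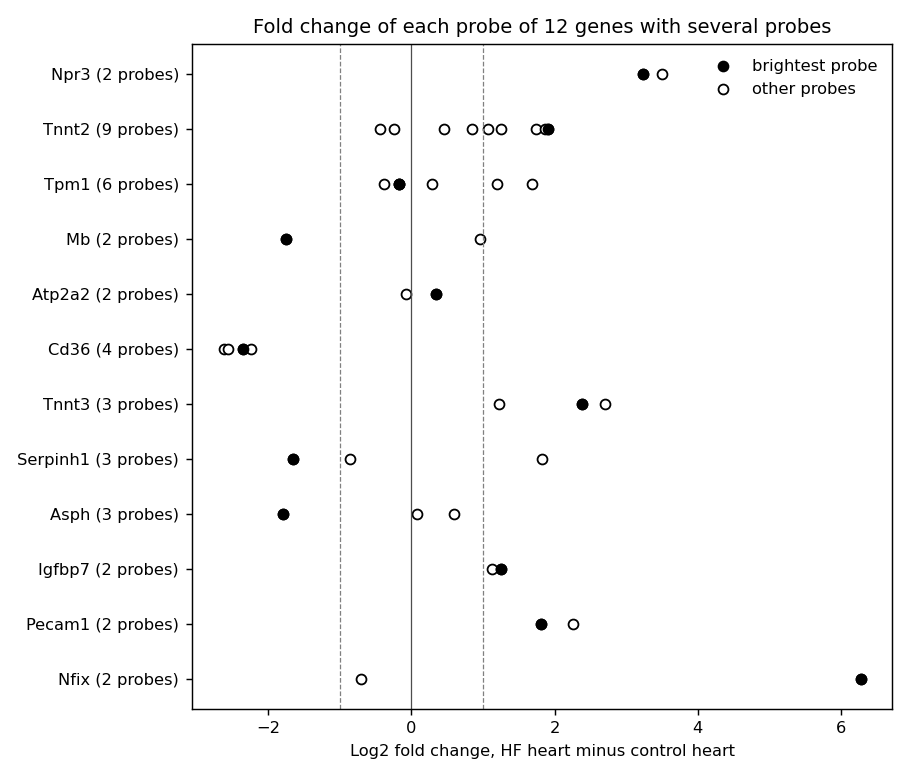
Log2 fold change (x axis, HF heart minus control heart) of each probe detected on both heart arrays for 12 genes with several probes, the brightest probe filled, with dashed lines at 2-fold. The 4 probes of Cd36 and both of Npr3 lie together, while those of Tnnt2, Mb, Serpinh1, Asph and Nfix spread across the lines.

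**Figure D5:**
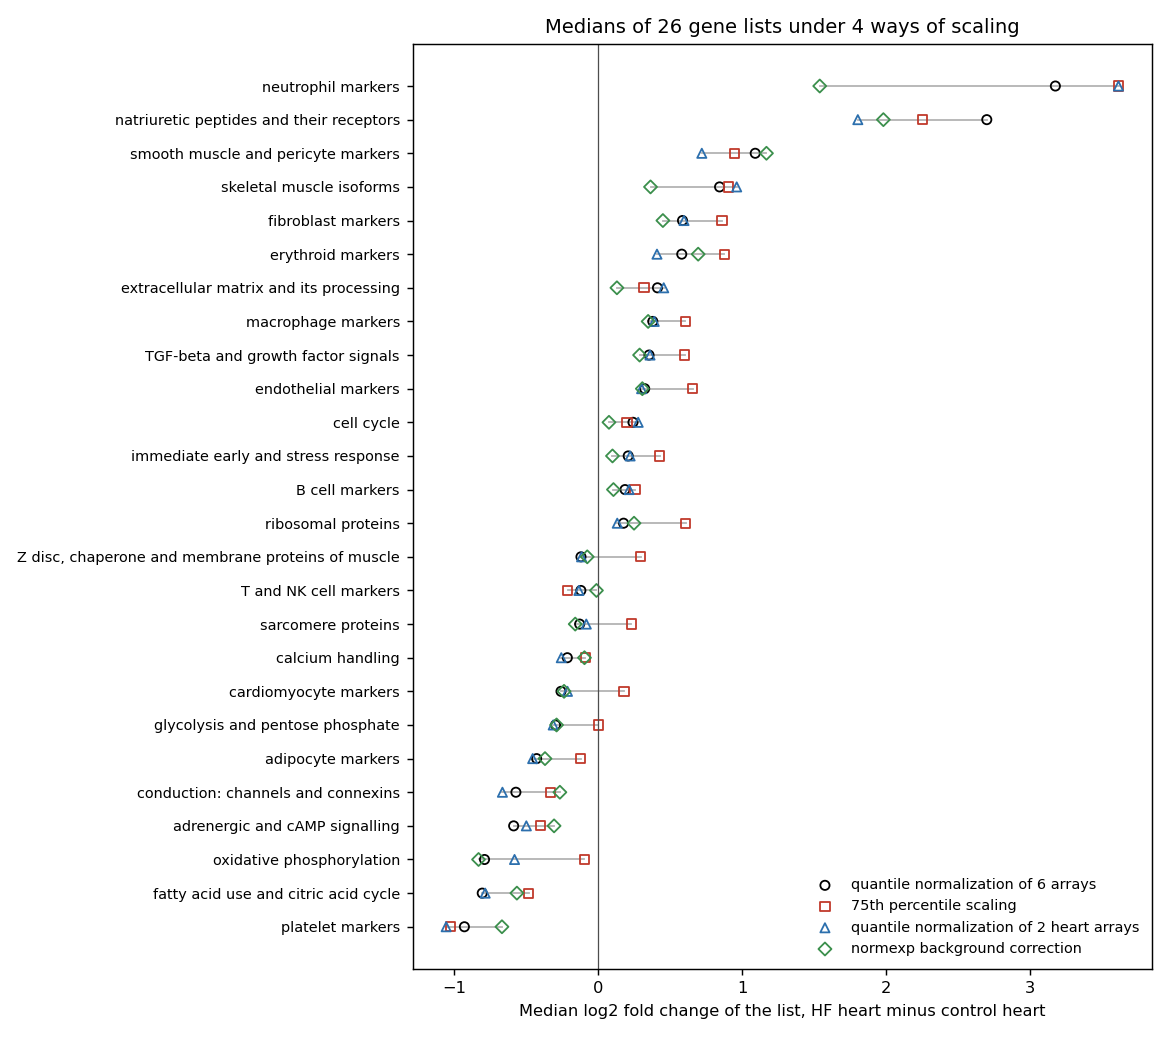
Median log2 fold change (x axis, HF heart minus control heart) of the detected members of 26 gene lists under 4 ways of scaling the arrays, 1 marker each. Neutrophil markers and natriuretic genes lie to the right under each, while the medians of sarcomere, Z disc, cardiomyocyte and oxidative phosphorylation genes move up to or past 0 with the 75th percentile scaling.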

How the data were processed

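RNA of heart was measured on 2 single-colour arrays, 1 of HF and 1 of control mice, next to 4 arrays of whole blood and plasma. The authors read the images with Feature Extraction 11.0.1.1, and the deposited intensity of each spot is its processed signal, background-subtracted but not yet normalized. The series table held these values too, with 0 spots that differed.

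Without the control spots, each probe was given the mean log2 signal of its spots, and the 59729 probes were quantile normalized over 6 arrays. Quantile normalization and the 2-fold limit follow the methods of the study. Gene names came from its gene table held in part here, with none of its values used, and 3977 of 4093 probes matched a current RefSeq symbol, 375 under another name. A gene was represented by its brightest probe detected on both heart arrays. Genes were named by rule: 4 markers, Gapdh and Actb, the 10 largest rises and falls, in each of 26 lists the 3 brightest members and the extremes, and all members of lists of up to 10 genes. Other names are stated as chosen after their values were seen, or are the whole of a small count. The members and lists were chosen with earlier results of these data known. The alternatives were 75th percentile scaling, normalization of the heart arrays alone, normexp with an offset of 50 on median signals, other detection rules, limits of 1.5 and 4-fold, and the median over probes. No test fits 1 array a side. Steps were tested on simulated arrays. Python 3.11.15, numpy 2.4.6, pandas 2.3.3, R 4.3.3 and limma 3.58.1 were used. Some members counted in the lists are not reported here by name.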

Additional observations from a re-analysis of the deposited data

Results flagged for a closer look

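Among the genes named above, 78 were detected on the heart and whole blood arrays and 70 on the heart and plasma arrays, and 16 genes differed at least 2-fold in opposite directions in heart and in blood or plasma. Of the genes that passed 2-fold in both tissues, 13 ran the same way and 8 the opposite way in heart and whole blood, and 11 and 12 in heart and plasma. These genes were named by rule, in part for the size of their difference in heart. The same counts over all genes were not made, so these counts have no background to be read against. With 1 array per condition the difference between tissues was not tested, and in blood the HF and control arrays lay on different slides, so that slide and HF cannot be told apart there.

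In whole blood, higher in HF and lower in HF heart were Acta1, with a log2 fold change of 3.50 in blood, Corin (2.58), Gapdh (2.33) and Gja1 (1.04). Lower in HF whole blood and higher in HF heart were Cd79b (-4.13), Aox1 (-2.54), Tnnt3 (-2.01) and Myl1 (-1.63). All 11 cardiomyocyte markers were detected on the HF whole blood array, and 3 on that of control mice. Nppa had a normalised signal of 46831 in HF whole blood and 6.65 in control whole blood. The part of heart RNA in these blood values was not tested. In plasma, higher in HF and lower in HF heart were Rps2 (3.99), Igsf9b (3.72), Gja1 (3.50), Igf2 (2.14), Mb (1.69), Corin (1.34) and Aldoa (1.28). Lower in HF plasma and higher in HF heart were Mt2 (-3.40), Aox1 (-2.38), Chad (-2.33), Tnnt3 (-2.04) and Acta2 (-1.16). Blood cell markers also differed between the plasma arrays. The summed level of erythroid markers was 700339 for control mice and 14840 for HF mice, and that of platelet markers 11307 and 239. Neutrophil markers, at 2280 and 18912, and macrophage markers, at 1055 and 2234, went the other way. The part of blood cell RNA in these plasma values was not tested. The heart side was not settled for Mb, whose probes gave -1.75 and 0.96, or for Igf2, whose other probe gave -0.54. Nor was it settled for Gapdh, whose probe of 20 spots gave -0.05, or for Corin, at -0.89 with 2 of the scalings. Cd79b was at 0.59 in heart with the normexp correction, so its heart side was not settled either.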

How the results depend on the processing

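No paired analysis was possible because each condition had 1 array. The counts of 319 higher and 454 lower genes became 172 and 251 with the normexp correction, 560 and 809 at 1.5-fold and 97 and 35 at 4-fold. With no detection filter 700 genes were lower, and 88 were higher among the 1330 detected on all 6 arrays. With the 75th percentile scaling the split turned, from 41.3% higher genes among all that passed 2-fold to 55.3%. Medians of lists moved as follows. The natriuretic list was at 1.80 with the heart arrays normalized alone, 1.98 with normexp and -1.09 when detection on all 6 arrays left only Corin. Neutrophil markers were at 1.54 with normexp. With no detection filter skeletal muscle isoforms were at 0.091 and platelet markers at -1.67, the latter also among genes detected on all 6 arrays. Smooth muscle markers turned to -0.24 with no filter and with the weaker detection flag, and were at 2.76 on all 6 arrays, where glycolysis was at -1.07, matrix at -0.60, growth factor signals at -0.48 and the cell cycle at -1.05. Detection on all 6 arrays keeps genes seen in blood as well, and fewer of them. Asph turned to 0.085 with the median over its probes. With normexp Gp1bb (-0.73), Cd247 (-0.39), Cx3cr1 (-0.93) and Mcm2 (0.67) came within 2-fold, as did Fhl2 with the 75th percentile (-0.54) and with the heart arrays normalized alone (-0.98). Of the 139 named genes detected on both arrays, 132, 135 and 118 moved by less than the pooled SD between probes, 0.70, with the 75th percentile, heart-alone and normexp settings. The causes were not tested. Signal over background limits the low genes, and with 1 array per condition no value separates HF from differences between these 2 mixtures.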

Other observations

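Genes detected on 1 heart array only were not counted among the differences above. The 56 detected in HF heart only and the 775 detected in control heart only passed detection through the array where they were high, and the detection limit lay at 4.72 on the HF heart array and 3.56 on that of control heart, so no count of their differences is given. The largest bounds, named after their values were seen, were those of Galns, a lysosomal sulphatase, at 11.44 in HF heart and 2.65 in control heart (at least 236-fold higher in HF heart), Ass1, an enzyme of arginine synthesis, at 9.44 and 3.62 (at least 56.5-fold), and Dio1, a deiodinase that activates thyroid hormone, at 9.05 and 3.20 (at least 45.0-fold). On the control side, after Gata1, came Ctage5, at 7.83 in control heart and 4.77 in HF heart (at least 8.34-fold higher in control heart), and Satb1, a chromatin organiser of lymphocytes, at 7.32 and 4.48 (at least 6.07-fold). Each rests on 1 array a side and on a detection limit that differed between the arrays.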
